A study of Homo sapiens with 6 samples.

Results

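The 10 genes described here, CBS, CTH, GCLC, GCLM, GSS, GSR, CHAC1, GPX1, GPX2 and GPX4, make cysteine from homocysteine, build glutathione from it, recycle it, degrade it or spend it on peroxides. They were taken by gene symbol from the 19727 genes of the expression table, as a group with a common function, and with earlier results of these data known. Each symbol matched 1 row.

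RNA of DU145, an established human prostate cancer cell line, was sequenced in 6 libraries. The 3 OE libraries came from a stable line carrying a lentivirus that overexpresses circCSPP1, a circular RNA of the CSPP1 gene, and the 3 NC libraries from DU145 with the control lentivirus, whose genotype is labelled normal. Both lines were selected with puromycin, and each group stands for 1 vector in 1 cell line. No label says that replicates came from separate cultures, so a p-value measures the spread between these libraries, which may be technical. The comparison of OE with NC asks which transcripts differ when circCSPP1 is overexpressed.

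Glutathione is the main soluble thiol of the cell and the electron donor for the removal of peroxides. Its cysteine comes either from imported cystine or from methionine by transsulfuration, in which CBS joins homocysteine to serine and CTH cleaves the product, cystathionine, to cysteine. Glutamate-cysteine ligase, with the catalytic subunit GCLC and the modifier subunit GCLM, makes γ-glutamylcysteine in the rate-limiting step, and GSS adds glycine. GSR returns oxidized glutathione to the reduced form with NADPH, CHAC1 cleaves glutathione in the cytosol, and the GPX enzymes oxidize it while they reduce peroxides. ATF4, which binds C/EBP-ATF response elements when amino acids are short or proteins misfold, and NRF2 (gene NFE2L2), which binds antioxidant response elements under oxidative stress, are known activators of genes of this pathway.

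Sequence before the RefSeq start of the genes is given here because 4 of the 5 genes that rose in OE (CBS, CTH, GCLC and CHAC1) have promoter windows that could be searched for these elements. The windows, from RefSeq on GRCh38.p14, run from 250 bases before to 50 bases after each annotated start. There were 12 windows for 8 of the 10 members; for GSS and GSR none is shown. The C/EBP-ATF response element core was searched as TGATGNAA and the antioxidant response element core as TGACNNNGC, each on both strands. The cores can overlap when they lie on opposite strands, and none of the members' matches did. The first core was in 1270 of all 35116 promoter windows (3.62%) and the second in 4687 (13.3%).

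For CTH (chr1:70411068-70411217, plus strand) and GCLC (chr6:53545130-53545279, minus strand), 150 bases outside any annotated GENCODE exon are printed, and these windows hold no match to either core. For CBS, 150 such bases are printed (chr21:43076379-43076528, minus strand), with the match in 1 of its 3 windows in capitals. It begins 83 bases before the start. The printed stretches of GCLC and CBS lie before a RefSeq start but within the longer GENCODE span of the gene.
CTH: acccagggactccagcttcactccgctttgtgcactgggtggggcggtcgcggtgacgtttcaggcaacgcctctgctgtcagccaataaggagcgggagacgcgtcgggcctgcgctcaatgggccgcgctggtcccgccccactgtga
GCLC: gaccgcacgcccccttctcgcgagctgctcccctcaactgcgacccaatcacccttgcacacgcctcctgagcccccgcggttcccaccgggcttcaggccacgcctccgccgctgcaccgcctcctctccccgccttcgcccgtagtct
CBS: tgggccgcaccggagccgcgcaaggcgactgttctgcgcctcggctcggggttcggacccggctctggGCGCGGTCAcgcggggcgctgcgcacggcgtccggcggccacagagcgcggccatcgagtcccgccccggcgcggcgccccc

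Matches in the other windows are shown as 30 bases with the core in capitals. Of the 8 members with windows, only CHAC1 (chr15:40953251-40953280, plus strand) had a C/EBP-ATF core, which begins 209 bases before its start. GCLM (chr1:93909445-93909474, minus strand) and GPX2 (chr14:64942848-64942877, minus strand) hold an antioxidant response element core, which begins 34 and 122 bases before the start. The CHAC1 and GPX2 matches lie inside an exon of another GENCODE transcript of the same gene. The windows of GPX1 and GPX4 hold no match. A match is a run of letters and not a measured binding site. Sequence outside these windows was not searched, so a window without a match does not show that a gene lacks the element.
CHAC1: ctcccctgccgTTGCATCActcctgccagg
GCLM: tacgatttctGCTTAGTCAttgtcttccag
GPX2: acctgtttttGCTAAGTCAtcctggggatg

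The values are FPKM, fragments scaled to transcript length and to the size of the library, so levels can be compared between genes. Fold changes are differences on log2(FPKM + 1), OE over NC, with a standard error (SE). They were tested with limma across the 12322 genes whose average over the 6 libraries reached 1 FPKM, and a gene was called at a Benjamini-Hochberg adjusted p under 0.05. The step between low values gave an estimated depth of 28900000 to 36700000 fragments in NC and 28900000 to 34700000 in OE. OE replicate 1 stood apart from the other OE libraries, with a correlation across genes of 0.970 and 0.979, against 0.990 for OE replicates 2 and 3 and 0.991 to 0.992 within NC. The row of the host gene CSPP1, which does not separate circular from linear RNA, averaged 9.54 ± 0.493 FPKM (SD, n = 3) in NC and 19.5 ± 4.44 in OE. The libraries were of poly(A) RNA, and by qRT-PCR the study found circCSPP1 raised by the vector but CSPP1 mRNA unchanged. Which RNA lies behind the higher row was not tested. All 5 epithelial markers were detected in both groups, as a DU145 label requires, and all were called lower in OE (summed level 2271 to 2361 FPKM in NC and 1046 to 1278 in OE). KRT8, KRT18 and KRT19 held most of this sum, averaging 1112, 623 and 557 FPKM in NC and 416, 347 and 378 in OE. On average CDH1 fell from 10.9 to 3.01 FPKM and EPCAM from 20.4 to 12.6. The androgen receptor programme, low in DU145, summed to 16.7 to 18.4 FPKM in NC and 16.6 to 19.2 in OE, with KLK3 and KLK2 at 0. Fibroblast, endothelial and leukocyte markers each summed to at most 4.14 FPKM in any library, with LUM and CD3E at 0. In bulk RNA, fewer cells of a type and less RNA per cell cannot be told apart. The part of the lower epithelial transcripts in the results below was not tested.

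Among all tested genes, 1399 (11.4%) were called, 578 higher (4.69%) and 821 lower (6.66%) in OE. With the libraries corrected for transcript GC content and length, 1814 were called higher and 1709 lower. Of the 10 members, 9 were tested, 5 were called higher, 0 lower and 4 were not called (GCLM, GSS, GPX1 and GPX4). The same 5, CBS, CTH, GCLC, GSR and CHAC1, had every OE library above every NC library, a pattern held by 16% of the tested genes. The median log2 fold change of the 9 tested members was 0.45, against -0.028 for all tested genes. GPX2 was below the filter. CBS, CTH and CHAC1 were called under every alternative and without any single library, whereas the calls of GCLC and GSR depended on the libraries used.

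**Figure D1:**
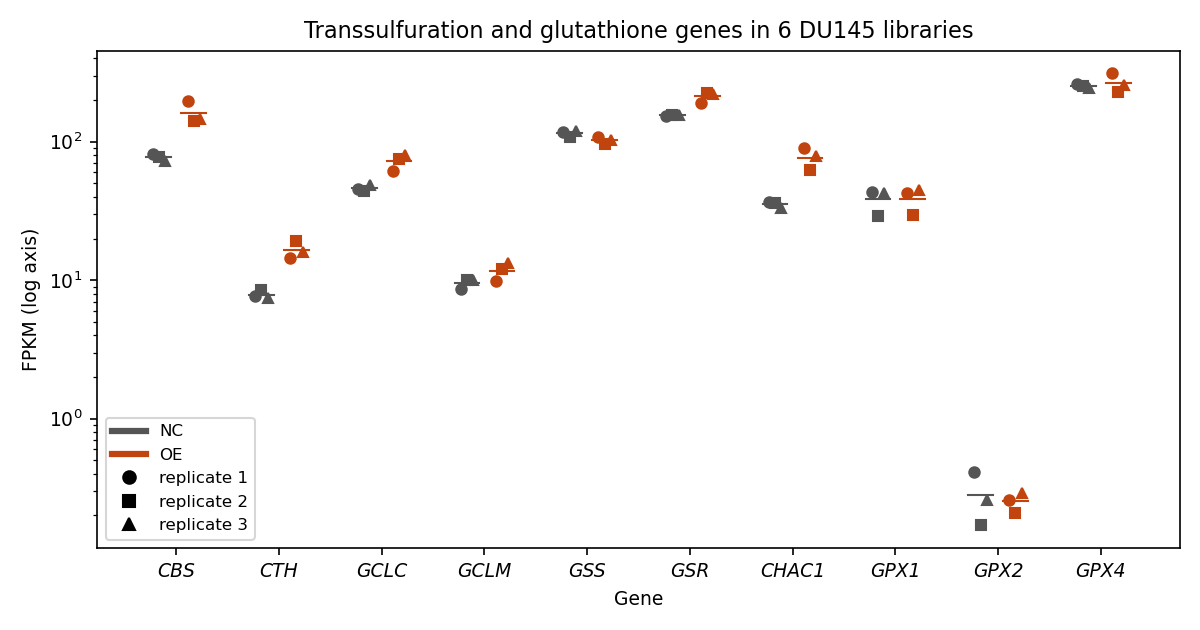
FPKM of the 10 genes (log axis) in the 3 NC (grey) and 3 OE (orange) libraries, with horizontal lines at the group means and a marker shape for each replicate number. The OE points of CBS, CTH, GCLC, GSR and CHAC1 lie above all their NC points, while those of GCLM, GSS, GPX1, GPX2 and GPX4 overlap with NC.

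Both enzymes of transsulfuration rose in OE. CBS (ENSG00000160200, chr21:43053191-43076943, minus strand, GRCh38) read 82.1, 78.0 and 72.8 FPKM in NC replicates 1 to 3 and 197, 140 and 145 FPKM in OE replicates 1 to 3. The lowest OE library was well above the highest NC library, and OE replicate 1 was the highest of all. The means were 77.6 ± 4.71 FPKM (SD, n = 3) in NC and 161 ± 31.4 in OE, a 2.07-fold difference, with a log2 fold change of 1.03 (SE 0.14, adjusted p = 0.0061).

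The annotation lists a near-identical copy of CBS, CBSL (ENSG00000274276, chr21:6444869-6468040, minus strand), so reads can be split between them. Their most alike coding transcripts are 2453 nt each and differ by 1 edit. CBSL read 34.6, 34.7 and 32.8 FPKM in NC and 85.5, 61.3 and 62.9 in OE, which was 42.1% to 45.04% of the CBS value in every library. Its values followed those of CBS, and the split between the copies is uncertain. The sum of CBS and CBSL was 112 ± 5.68 FPKM in NC and 231 ± 44.9 in OE, and its log2 fold change was 1.03 (adjusted p = 0.0058, an alternative added after the data had been seen).

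CTH (ENSG00000116761, chr1:70411218-70439851, plus strand), the enzyme that releases cysteine, was at a lower level than CBS. It read 7.70, 8.45 and 7.49 FPKM in NC and 14.4, 19.1 and 15.9 in OE. The groups were separate, and here OE replicate 1 was the lowest OE library. The means were 7.88 ± 0.505 and 16.4 ± 2.40 FPKM, a 2.09-fold difference, with a log2 fold change of 0.97 (SE 0.13, adjusted p = 0.0060). An estimated 464 to 1352 fragments per library lie behind these values. CBS and CTH ranked 67 and 85 from the top among the log2 fold changes of the 12322 tested genes.

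Of the subunits of glutamate-cysteine ligase, GCLC was called higher and GCLM was not, and the comparison of their ratio is given below. The catalytic subunit GCLC (ENSG00000001084, chr6:53497341-53616970, minus strand) read 45.3, 44.0 and 49.0 FPKM in NC and 61.9, 74.8 and 80.6 in OE. All OE libraries were above all NC libraries. The means were 46.1 ± 2.58 and 72.4 ± 9.54 FPKM (1.57-fold), with a log2 fold change of 0.63 (SE 0.11, adjusted p = 0.016). Without NC replicate 1, 2 or 3, or OE replicate 3, in turn, the change was 0.62, 0.60, 0.68 and 0.55 and the adjusted p was 0.076, 0.084, 0.055 and 0.065, so the call was lost. Exons of GCLC share 304 bases with AL033397.1 on the same strand and 7 bases with AL033397.2 on the other, and neither has a row in the table. The sources used here do not say whether counting used strand.

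The modifier subunit GCLM (ENSG00000023909, chr1:93885205-93909456, minus strand), which raises the efficiency of GCLC, read 8.67, 10.1 and 10.1 FPKM in NC and 9.93, 11.95 and 13.3 in OE. OE replicate 1 lay within the NC range. The log2 fold change was 0.25 (SE 0.13, 95% interval -0.056 to 0.57, adjusted p = 0.26), so it was not called. It was called without OE replicate 1 (0.36, adjusted p = 0.039). Of the members with a match to the antioxidant response element core, CBS was called higher, GCLM was not called and GPX2 was not tested.

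GSS (ENSG00000100983, chr20:34928433-34956027, minus strand), the second enzyme of synthesis, read 118, 107 and 120 FPKM in NC and 109, 96.2 and 103 in OE. The groups overlapped. The log2 fold change was -0.17 (SE 0.085, 95% interval -0.37 to 0.032, adjusted p = 0.25) and it was not called.

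GSR (ENSG00000104687, annotated on the minus strand), which regenerates reduced glutathione, had the tightest NC values of the members that were tested. It read 155, 155 and 155 FPKM in NC and 191, 225 and 222 in OE. Every OE library was higher, with OE replicate 1 the lowest of them. The means were 155 ± 0.476 and 213 ± 18.9 FPKM (1.37-fold), with a log2 fold change of 0.45 (SE 0.085, adjusted p = 0.018). The change without NC replicate 1, 2 or 3, or OE replicate 3, was 0.45, 0.45, 0.45 and 0.42, and the adjusted p was 0.088, 0.089, 0.082 and 0.080, so this call too was lost in those fits.

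CHAC1 (ENSG00000128965, chr15:40952962-40956519, plus strand), the γ-glutamylcyclotransferase that degrades glutathione, had the largest log2 fold change of the 9 tested members, at rank 48 of all tested genes. Without OE replicate 1 CTH was above it (1.05 against 0.97). It read 36.8, 36.0 and 33.1 FPKM in NC and 89.7, 62.1 and 78.4 in OE. The groups were far apart relative to their spread. The means were 35.3 ± 1.95 and 76.7 ± 13.9 FPKM (2.17-fold), with a log2 fold change of 1.08 (SE 0.14, adjusted p = 0.0055). CHAC1 is the member with the C/EBP-ATF core printed above, and whether ATF4 plays a part in its difference was not tested. ATF4 itself read 301, 302 and 286 FPKM in NC and 392, 380 and 396 in OE, a log2 fold change of 0.40 (adjusted p = 0.011), and its call was lost in the same 4 fits as that of GSR (0.41, 0.41, 0.37 and 0.38, adjusted p 0.068, 0.066, 0.069 and 0.062).

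**Figure D2:**
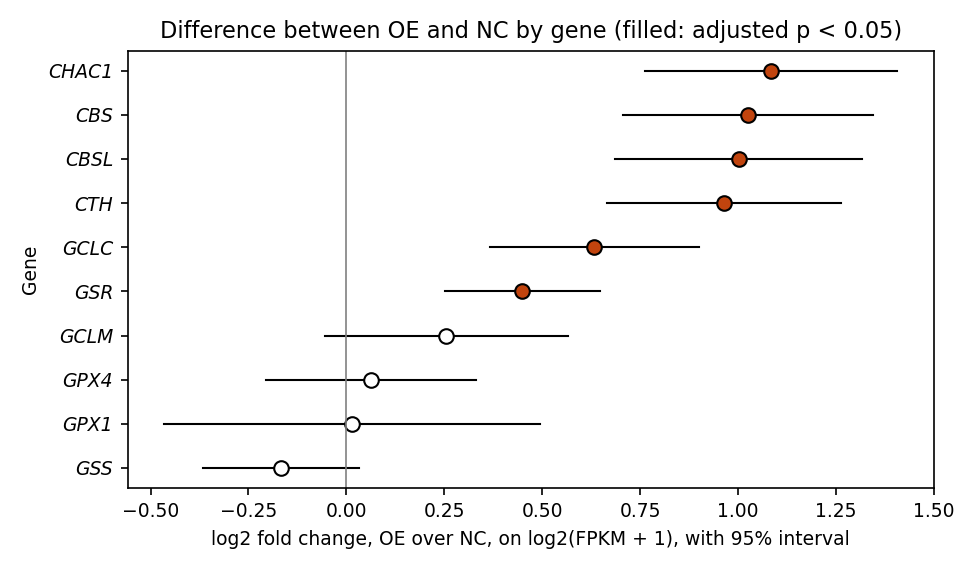
Difference between OE and NC on log2(FPKM + 1) for the 9 tested members and CBSL, with 95% intervals from limma and filled points where the adjusted p was under 0.05. CHAC1, CBS, CBSL and CTH sit between 0.97 and 1.08, GCLC and GSR at 0.63 and 0.45, and the intervals of GCLM, GPX4, GPX1 and GSS include 0.

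None of the 3 peroxidase members was called. GPX4 (ENSG00000167468, chr19:1103926-1106791, plus strand), the selenoenzyme that reduces lipid hydroperoxides in membranes, read 261, 254 and 242 FPKM in NC and 312, 230 and 255 in OE. The OE values spread to both sides of the NC values. Its log2 fold change was 0.062 (SE 0.11, 95% interval -0.21 to 0.33, adjusted p = 0.77).

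GPX1 (ENSG00000233276, chr3:49357171-49358600, minus strand), the abundant cytosolic peroxidase, which GENCODE 29 types as a polymorphic pseudogene, read 43.2, 29.2 and 43.0 FPKM in NC and 42.5, 29.4 and 44.7 in OE. Replicate 2 was the lowest library in both groups. Its log2 fold change was 0.015 (SE 0.21, 95% interval -0.46 to 0.49, adjusted p = 0.97). This interval is the widest among the members.

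GPX2 (ENSG00000176153, chr14:64939152-64942905, minus strand), the gastrointestinal form, read 0.41, 0.17 and 0.26 FPKM in NC and 0.26, 0.21 and 0.29 in OE. These values rest on an estimated 5 to 13 fragments per library, and a difference could not be judged at this depth.

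Within the family, GPX4 made up 77.4% ± 3.31 (SD, n = 3) of the summed FPKM of the 8 GPX genes in NC and 77.7% ± 4.16 in OE. GPX1 followed with 11.7% ± 2.19 and 11.3% ± 1.71, and GPX3, the secreted plasma form, with 5.97% ± 1.87 and 6.30% ± 2.58. GPX8, an endoplasmic reticulum form, held 4.43% ± 0.107 and 4.26% ± 1.71, and GPX7 0.380% and 0.352%. The family sum ran from 316 to 335 FPKM in NC and from 304 to 378 in OE, so the ranges overlapped. GPX3 (log2 fold change 0.078, adjusted p = 0.89), GPX7 (-0.028, adjusted p = 0.92) and GPX8 (-0.075, adjusted p = 0.86) were not called either. GPX5 was listed at 0 throughout, and GPX6 at 0.08 FPKM in NC replicate 2 alone.

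The order of the levels differed between the groups. In NC it ran, from the highest mean down, GPX4, GSR, GSS, CBS, GCLC, GPX1, CHAC1, GCLM, CTH and GPX2, and GPX1 and CHAC1 were the neighbours whose libraries overlapped. In OE it ran GPX4, GSR, CBS, GSS, CHAC1, GCLC, GPX1, CTH, GCLM and GPX2, with overlap between GSR and CBS and between CHAC1 and GCLC. CBS stood below GSS in every NC library and above it in every OE library. This order rests on the CBS row alone: with CBSL added, NC replicate 2 was at 113 FPKM, above its GSS value of 107, and the OE mean of 231 FPKM was above that of GSR. CTH and GCLM likewise changed places.

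Ratios between genes of the same library do not depend on how libraries were scaled. The 4 ratios were compared by a two-sided exact permutation test, which with 3 against 3 libraries cannot go below p = 0.10, and p-values were adjusted over the 4. GCLM was 19.1%, 23.0% and 20.6% of GCLC in NC and 16.0%, 16.0% and 16.5% in OE. All OE ratios were lower, by 0.37 on the log2 scale on average (exact p = 0.10, adjusted 0.20). CHAC1 was 31.1%, 33.5% and 27.5% of GSS in NC and 82.5%, 64.5% and 76.2% in OE. This ratio of the degrading to the synthesizing enzyme was higher in all OE libraries, by 1.27 on the log2 scale (exact p = 0.10, adjusted 0.20).

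CTH was 9.37%, 10.8% and 10.3% of CBS in NC and 7.29%, 13.6% and 10.9% in OE. The ranges overlapped, with OE replicates 1 and 2 at the extremes, and the log2 difference was 0.016 (exact p = 0.90, adjusted 0.90). This CTH ratio used the CBS row alone, without CBSL. GPX1 was 16.6%, 11.5% and 17.7% of GPX4 in NC and 13.6%, 12.8% and 17.5% in OE, again with overlap and a log2 difference of -0.047 (exact p = 0.90, adjusted 0.90).

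**Figure D3:**
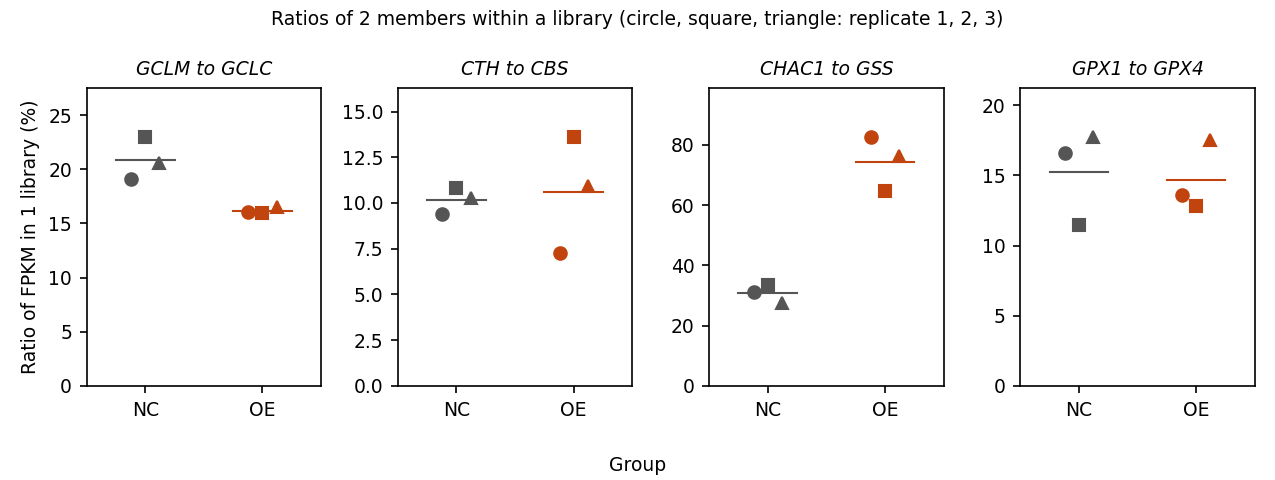
FPKM of a gene as a percentage of another gene in the same library, for 4 pairs, in NC (grey) and OE (orange), with lines at the group means and each y axis starting at 0. The GCLM to GCLC ratio is below 17% in OE and above 19% in NC, the CHAC1 to GSS ratio is at least 64.5% in OE and at most 33.5% in NC, and the other pairs overlap.

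Within OE, the place of replicate 1 went with the base composition of the transcripts. OE replicate 1 minus the mean of OE replicates 2 and 3, on log2(FPKM + 1), was 0.46 for CBS, 0.36 for CHAC1, 0.36 for GPX4, 0.22 for GPX1 and 0.13 for GSS, whose longest coding transcripts have 54.6% to 65.2% GC. It was -0.23 for GSR, -0.26 for CTH, -0.32 for GCLM and -0.32 for GCLC, whose transcripts have 37.3% to 48.2% GC. The 9 tested members thus fell on either side of 0 by GC content. These points share the same libraries and give a description only. After each library was corrected for GC content and length, a step added after the data had been seen, the same 5 members were called. Their log2 fold changes were then 1.06 for CBS, 1.01 for CTH, 0.67 for GCLC, 0.48 for GSR and 1.10 for CHAC1, and GCLM was at 0.32 (adjusted p = 0.079). In that fit 3523 of 12310 tested genes were called, 1814 of them higher, whereas the main fit called 1399 of 12322, 578 of them higher.

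**Figure D4:**
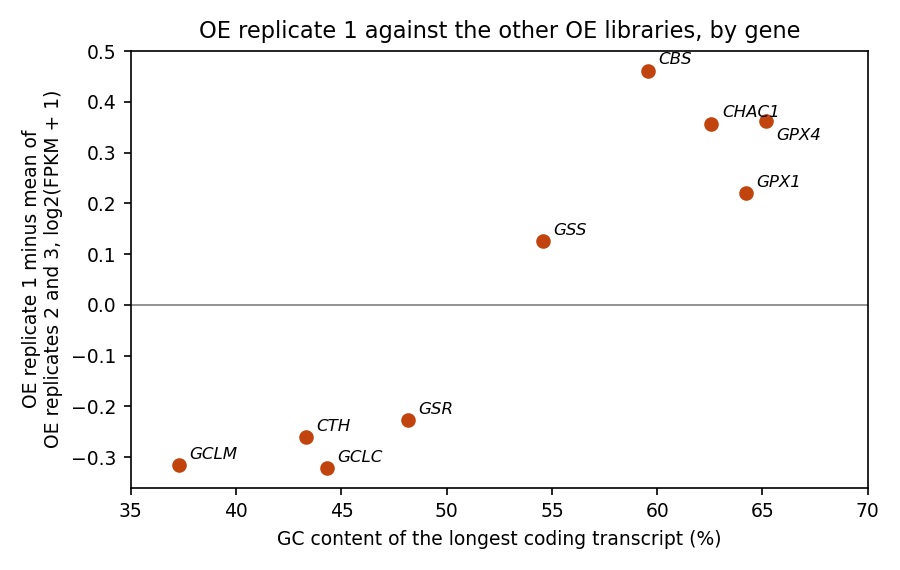
OE replicate 1 minus the mean of OE replicates 2 and 3 on log2(FPKM + 1), against the GC content (%) of each gene's longest coding transcript, with 1 point for each of the 9 tested members. The 4 genes at or below 48.2% GC lie between -0.32 and -0.23, and the 5 genes at or above 54.6% between 0.13 and 0.46.

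The rest of glutathione metabolism was described by 137 genes in 13 lists. Of these, 118 were tested, 13 were called higher and 15 lower in OE, and the median log2 fold change was -0.027, close to the -0.028 of all tested genes. Over all tested genes 11.4% were called, 4.69% higher and 6.66% lower. These lists, too, were written with earlier results of these data known, so their counts are a description.

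The list for cystine and cysteine import, which also holds neutral amino acid exchangers, had the highest median, 0.87, the value of SLC7A11. All 5 of its genes were called, 4 higher and 1 lower. SLC7A11 and SLC3A2 are the light and heavy chains of the cystine/glutamate exchanger xCT. SLC3A2, a chain it shares with other transporters, read 156, 145 and 152 FPKM in NC and 351, 302 and 363 in OE (log2 fold change 1.15, SE 0.089, adjusted p = 0.0013). SLC7A11 read 8.54, 9.26 and 8.02 FPKM in NC and 11.3, 22.4 and 17.9 in OE. Its groups were separate but OE replicate 1 was close to NC (log2 fold change 0.87, SE 0.22, adjusted p = 0.046). The SLC7A11 call was lost in 8 of 14 alternatives, among them without NC replicate 1, 2 or 3 or OE replicate 2 or 3 (0.87, 0.92, 0.83, 0.67 and 0.82, adjusted p 0.14, 0.13, 0.15, 0.075 and 0.14).

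The neutral amino acid exchangers SLC1A4 and SLC1A5 also rose, from 12.1 ± 1.08 to 30.4 ± 1.99 FPKM (log2 fold change 1.26, adjusted p = 0.0015) and from 241 ± 21.5 to 398 ± 40.2 FPKM (0.72, adjusted p = 0.0071). SLC1A1, a glutamate transporter that also carries cysteine, fell from 4.18 ± 0.594 to 2.41 ± 0.397 FPKM (-0.60, adjusted p = 0.034). The SLC1A1 call was lost without NC replicate 1, 2 or 3 or OE replicate 3 (-0.68, -0.52, -0.61 and -0.52, adjusted p 0.078, 0.13, 0.11 and 0.12).

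Upstream of CBS, none of the 8 tested genes of the methionine cycle (12 in the list) was called, with log2 fold changes from -0.31 to 0.25. Of the 7 tested genes that break down cysteine or handle sulfide, GOT1, an aminotransferase, rose (66.2 to 88.0 FPKM, 0.41, adjusted p = 0.018) and SQOR, which oxidizes sulfide in mitochondria, fell (171 to 123 FPKM, -0.48, adjusted p = 0.0100). Leaving out NC replicate 1, 2 or 3 ended the calls of GOT1 (0.38 to 0.42, adjusted p 0.084 to 0.095) and SQOR (-0.49 to -0.47, adjusted p 0.057 to 0.065), and leaving out OE replicate 3 that of GOT1 (0.44, adjusted p = 0.060). The GOT1 call was also lost with the replicate number as a block (adjusted p = 0.053).

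Downstream, the glutathione transferases, which conjugate glutathione to electrophiles, had the lowest median, -0.34. Of 16 tested (19 in the list), 7 were called lower and 0 higher, and 10 had every OE library below every NC library, against 6.66% called lower and 20.5% with that pattern among all tested genes. GSTA4 fell from 14.1 ± 1.15 to 6.60 ± 1.45 FPKM (-1.002, adjusted p = 0.011), PTGES, a glutathione-dependent prostaglandin E synthase, from 109 ± 2.38 to 63.9 ± 6.54 FPKM (-0.76, adjusted p = 0.0049), and GSTCD from 9.26 ± 0.406 to 5.25 ± 0.731 FPKM (-0.72, adjusted p = 0.013). Leaving out NC replicate 1, 2 or 3 ended the calls of GSTA4 (-1.05 to -0.94, adjusted p 0.051 to 0.064) and GSTCD (-0.74 to -0.69, adjusted p 0.059 to 0.077), not that of PTGES. The other 4 called lower were GSTM1, GSTM2, GSTM3 and GSTM4, named after their values were seen, with log2 fold changes from -0.66 to -0.44. These 4 are similar in sequence, and reads could be split among them. No fit without a library is given for them.

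Of 8 tested genes for glutathione breakdown other than CHAC1 (11 in the list), 2 were called lower and 6 were not called. ANPEP, a surface aminopeptidase, fell from 2.24 ± 0.0751 to 0.253 ± 0.181 FPKM (-1.38, adjusted p = 0.0023, and -2.89 with a pseudocount of 0.1). LAP3, which can cleave cysteinylglycine, fell from 58.5 ± 1.69 to 43.6 ± 3.64 FPKM (-0.42, adjusted p = 0.028). Among those not called was CHAC2, named after its values were seen (0.12, adjusted p = 0.76). The LAP3 call was lost without any library other than OE replicate 1 (-0.48 to -0.40, adjusted p 0.055 to 0.13) and with the replicate number as a block (adjusted p = 0.063). CHAC1 was thus the only glutathione-degrading gene examined here that was called higher. None of the 7 tested glutaredoxins and glyoxalases and none of the 7 tested glutathione transporters was called.

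Among 17 tested genes that supply NADPH, the cofactor of GSR, 2 rose and 2 fell. MTHFD2 (130 to 213 FPKM, 0.70, adjusted p = 0.0082) and ALDH1L2 (4.59 to 8.37 FPKM, 0.75, adjusted p = 0.019), both of mitochondrial folate metabolism, rose. IDH2, a mitochondrial isocitrate dehydrogenase, fell (44.7 to 29.9 FPKM, -0.57, adjusted p = 0.018), and so did NNT, the mitochondrial transhydrogenase, named after its values were seen (35.4 to 25.8 FPKM, -0.45, adjusted p = 0.020). Leaving out NC replicate 1, 2 or 3 or OE replicate 3 ended the calls of ALDH1L2 (0.64 to 0.81, adjusted p 0.066 to 0.079) and IDH2 (-0.60 to -0.50, adjusted p 0.069 to 0.093), not that of MTHFD2. For NNT no such fit is given.

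In the parallel thioredoxin and peroxiredoxin system, 4 of 15 tested genes rose and 0 fell, with a median of -0.10. SESN2, an antioxidant stress protein, rose from 12.01 ± 0.628 to 30.02 ± 1.40 FPKM (1.25, adjusted p = 0.0013), SRXN1, which repairs overoxidized peroxiredoxins, from 135 ± 3.04 to 261 ± 26.8 FPKM (0.94, adjusted p = 0.0024), and the reductase TXNRD1 from 855 ± 22.1 to 1202 ± 131 FPKM (0.49, adjusted p = 0.017). Leaving out NC replicate 1, 2 or 3 or OE replicate 3 ended the call of TXNRD1 (0.43 to 0.50, adjusted p 0.071 to 0.084), not those of SESN2 and SRXN1. The other gene called higher, TXNRD2, was named after its values were seen (0.41, adjusted p = 0.034), and no fit without a library is given for it.

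GPX1, GPX2 and GPX4 are selenoproteins. None of the 9 tested genes that make selenoproteins was called (median 0.16), and of 12 tested selenoproteins outside the members, MSRB1, a methionine sulfoxide reductase (-0.42, adjusted p = 0.020), and SELENOW (-0.57, adjusted p = 0.016) fell and 0 rose. Leaving out NC replicate 1, 2 or 3 ended the calls of MSRB1 (-0.43 to -0.40, adjusted p 0.087 to 0.11) and SELENOW (-0.59 to -0.56, adjusted p 0.068 to 0.085), and leaving out OE replicate 3 that of MSRB1 (-0.42, adjusted p = 0.083). With the replicate number as a block, MSRB1 was not called (adjusted p = 0.065). TXNRD1 and TXNRD2, which are selenoproteins as well, were counted with the thioredoxin system.

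Of the 4 regulators, ATF4 and NFE2L2 were called higher. NFE2L2 read 24.7, 43.3 and 22.5 FPKM in NC and 54.2, 71.7 and 63.9 in OE. The groups did not overlap, and replicate 2 was the highest library in both (log2 fold change 1.09, SE 0.24, adjusted p = 0.029). The NFE2L2 call was lost without NC replicate 1 or 3 or OE replicate 2 or 3 (0.98, 0.92, 0.999 and 1.08, adjusted p 0.11, 0.099, 0.065 and 0.094). KEAP1, which targets NRF2 for degradation, was at 58.1 and 94.0 FPKM (0.68, adjusted p = 0.051), just outside the threshold, and was called without OE replicate 1 (0.51, adjusted p = 0.044) or OE replicate 2 (0.81, adjusted p = 0.036). BACH1, a repressor at antioxidant response elements, was at 43.7 and 44.3 FPKM (-0.089, adjusted p = 0.90), and its sign turned without OE replicate 1 (0.36).

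**Figure D5:**
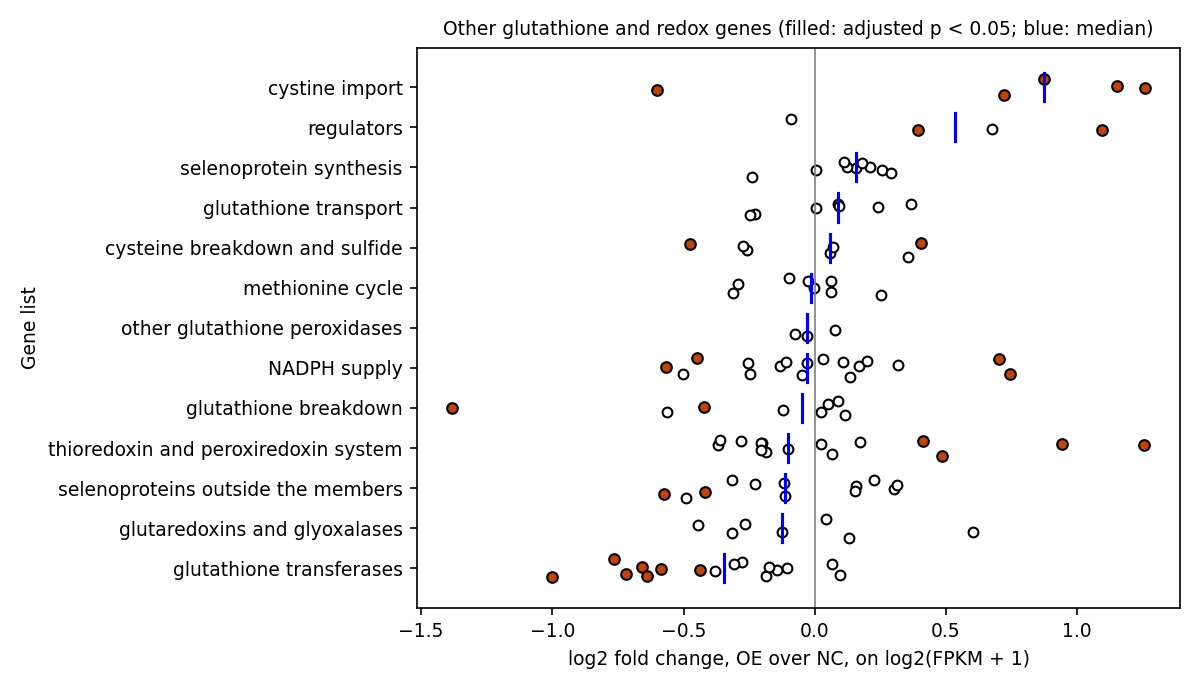
Log2 fold change, OE over NC, on log2(FPKM + 1) for the 118 tested genes of 13 lists, 1 point per gene, filled where the adjusted p was under 0.05, with a blue line at each list's median and vertical scatter for legibility only. The list labelled cystine import, which also holds neutral amino acid exchangers, has the highest median (0.87, the value of SLC7A11). Glutathione transferases have the lowest (-0.34), and most of the other medians lie within 0.16 of 0.

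The study links circCSPP1 to the microRNA miR-520h, so the members' longest 3′ UTRs (GENCODE 29) were searched for CACTTTG, the complement of its seed. The mature sequence, from RefSeq, is printed with the seed (bases 2 to 8) in capitals.
miR-520h: aCAAAGUGcuucccuuuagagu

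A site was present in 2 of the 10 members, GCLM and GSR, against 3117 of 12233 tested genes with a 3′ UTR (25.5%). GSR was called higher and GCLM was not. CBS, CTH, GCLC and CHAC1, which rose, hold no site in these UTRs. Across all tested genes the median log2 fold change was -0.027 with a site and -0.028 without. A seed site is a run of letters and not a measured target. Whether miR-520h, directly or through other genes, plays a part in these differences was not tested.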

How the data were processed

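The authors sequenced poly(A) RNA of 6 DU145 libraries (3 NC, 3 OE) in paired-end mode and deposited 1 table of FPKM values, rounded to 2 decimals, for 19727 genes. The submitters' processing notes name hg38; the aligner, the FPKM program and the annotation are not given in the sources used here. A count model was not used, since FPKM is already scaled. A gene's FPKM depends on what the other genes take up of its library, and the top 20 genes held 14.9% to 15.2% of the summed FPKM in NC and 12.0% to 12.1% in OE. Columns were matched to samples by group and replicate number, and 0 were left unused.

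Values were taken to log2(FPKM + 1), which understates the change of low genes. The 12322 genes averaging 1 FPKM or more over the libraries entered the test (7405 did not), by the lmFit and trended eBayes functions of limma 3.58.1 (R 4.3.3), two-sided, with Benjamini-Hochberg adjustment over all of them. The test was checked on simulated data with independent noise and with changes larger than that of any member. This check does not show how well changes of the members' size are found. Ratios were tested by exact permutation (scipy 1.17.1). The study names a general test for its experiments and none for the sequencing. Depth was estimated from genes with a single transcript under 800 nt in GENCODE 29, where 92.9% to 98.2% of values per library fell on a step (tolerance 0.15 of a step). Fragment numbers given for a gene are estimates from this depth. Transcripts came from GENCODE 29, possibly a different annotation from the one behind the table, and promoters and the microRNA from RefSeq.

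The members and gene lists were chosen with earlier results of these data known. Named were all members, the 3 called genes with the largest absolute log2 fold change in each list, and every gene of lists with at most 5, other genes being marked where they appear. The alternatives were a pseudocount of 0.1, no filter or a mean of 5 FPKM, TPM, median-ratio scaling, an unmoderated test, the replicate block, leaving out each library, and, added later, a loess correction for GC content and length and the sum of CBS and CBSL.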

Additional observations from a re-analysis of the deposited data

How the results depend on the processing

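Of 37 single-gene results, 516 values under alternatives were computed: 418 kept direction and side of the threshold, 81 lost the call, 6 gained it and 11 changed sign. CBS (0.87 to 1.116), CTH (0.86 to 1.05) and CHAC1 (0.97 to 1.23) were called in all of theirs. The 5 members called became 3 under the unmoderated test (GCLC, adjusted p = 0.064, and GSR, adjusted p = 0.054, dropped out) and 3 to 6 when a library was left out: 3 without NC replicate 1, 2 or 3 or OE replicate 3, and 6 without OE replicate 1. In these fits a group of 2 libraries shares the spread pooled over both groups. Of all 12322 tested genes, 300, 317 and 407 were called without NC replicate 1, 2 and 3, and 450 without OE replicate 3. Without OE replicate 1, 3512 were called, so the member counts moved with the calls of the whole table.

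Over all tested genes, 1399 calls became 834 under the unmoderated test, 923 with the replicate block, 3523 after the loess correction (1814 higher and 1709 lower) and 300 to 3512 without a library, highest without OE replicate 1. The 28 calls in the pathway lists became 53 after the loess correction and 9 to 53 without a library, the highest again without OE replicate 1. The causes were not tested.

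Signs turned for values that were not called. GPX1 ran from -0.17 to 0.20 without a library (negative without NC replicate 2, OE replicate 1 and OE replicate 3) and GPX4 from -0.058 to 0.16 (negative without OE replicate 1). GPX3 ran from -0.087 to 0.38 (negative without NC replicate 1, OE replicate 2 and OE replicate 3), GPX7 from -0.13 to 0.056 (positive without NC replicate 3 and OE replicate 3), GPX8 from -0.26 to 0.17 and BACH1 from -0.34 to 0.36 (both positive without OE replicate 1). The CTH to CBS log2 ratio turned to -0.061 with a pseudocount of 1, and ran from -0.19 to 0.26 without a library. The GPX1 to GPX4 log2 ratio ran from -0.24 to 0.073.

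The submitters' design text calls the samples paired without saying what pairs them. Same-numbered libraries showed no clear pairing in these data, with deviations correlated at 0.073, 0.0065 and 0.057, so the main test has no block. With the replicate number as a block, the members called stayed 5, the pathway calls became 23 and the calls over all tested genes became 923. GOT1, LAP3 and MSRB1 lost the call (adjusted p = 0.053, 0.063 and 0.065) and KEAP1 gained it (0.030). The ratio tests with the block gave p = 0.25 for the GCLM to GCLC and CHAC1 to GSS ratios (sign-flip, exact). Depth limits GPX2 alone among the members.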
